A study of Mus musculus with 12 samples.

Results

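Gonadal white adipose tissue of miR-10a KO mice was compared between a high-fat diet (HFD, 3 libraries) and a normal chow diet (NCD, 3 libraries). These are 6 of the 12 RNA-seq libraries of a study that fed the same diets to wild-type (WT) mice, and they were taken from the deposited table by their column names, which begin with KO_HFD or KO_NCD. The mice of all groups were C57BL/6 males that started their diet at 8 weeks of age and stayed on it for 16 weeks, housed at a 12-h light and dark cycle. The KO mice differed from the WT mice by the genotype miR-10a KO; the labels do not say how the allele was made or whether the deletion covered every cell, and the fat content of the diets is not given in the sources used here. Each library is described by the submitters as a biological replicate, so the p-values below measure the spread between individual samples of gonadal fat. Libraries are named by the numbers in the column headers, KO_NCD 2, 3 and 4 and KO_HFD 3, 5 and 8, and values are always given in that order.

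Gonadal white fat is an energy store whose adipocytes make and hydrolyse triglyceride, take up glucose in response to insulin and secrete hormones such as leptin and adiponectin. When mice are kept on a high-fat diet the depot expands, adipocytes die, and macrophages collect around them and digest their lipid in lysosomes. miR-10a is a microRNA encoded in the HoxB gene cluster, and a microRNA lowers messenger RNAs that pair with its seed, bases 2 to 8 of the mature strand.

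The mature strands of miR-10a are shown here because the genotype is named for it; the labels do not give the extent of the deletion. In RefSeq (GRCm38.p6) the hairpin lies at chr11:96317165-96317274 on the plus strand of mouse chromosome 11, and the 2 mature strands cut from it, at chr11:96317186-96317208 and chr11:96317227-96317248, read as follows with the seed in capitals.
mmu-miR-10a-5p: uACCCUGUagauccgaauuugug
mmu-miR-10a-3p: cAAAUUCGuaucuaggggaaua
The libraries were made from polyadenylated RNA and carry no mature microRNA, and the Mir10a row held 0.0813 to 0.276 FPKM in the 6 KO libraries and 0.0221 to 0.425 FPKM in the 6 WT libraries. These ranges overlapped, so the table does not check the genotype.

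The table holds FPKM, fragments per kilobase of transcript scaled to the mapped fragments of each library, for 30268 genes. It gives no counts, and sequencing depth is unknown. Summed FPKM was 425270, 455434 and 420126 on NCD and 390225, 396403 and 383633 on HFD, so it was lower in each HFD library. The main fit did not equalise these sums. In the 6 libraries 12859 to 13479 genes reached 1 FPKM. Adipocyte markers were abundant on both diets: Plin1, the perilipin coating the lipid droplet, was at 619, 727 and 654 FPKM on NCD and 270.1, 321 and 170.1 FPKM on HFD. Fabp4, the adipocyte fatty acid carrier, was at 13729, 16911 and 14369 FPKM on NCD and 7402, 8821 and 5105 FPKM on HFD. Libraries separated by diet on the first principal component, which held 82% of the variance, while the second, 9.36%, set KO_NCD 2 apart from the rest. KO_NCD 2 carried transcripts of ciliated and duct epithelium, with Foxj1, the master regulator of motile cilia, at 25.3, 1.18 and 1.49 FPKM on NCD and 0.0284, 0.383 and 0.0208 FPKM on HFD. These are bulk tissue values, so fewer cells of a type and less RNA per cell cannot be told apart.

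Differences were tested with limma on log2(FPKM + 1) over 14340 genes at 1 FPKM or more in 3 or more of all 12 libraries, with Benjamini-Hochberg adjustment over all of them; all fold changes below are on this log2 scale, HFD over NCD, and understate the change of genes near 1 FPKM. At an adjusted p under 0.05, 8730 genes (60.9%) were called, 4967 higher on HFD (34.6%) and 3763 lower (26.2%). The 3 HFD and 3 NCD values did not overlap for 9563 genes (66.7%). With so much of the transcriptome called, a count of list members is read against these percentages, and a list's median log2 fold change against the median of all tested genes, 0.04. For each of the 212 genes named below that passed the test the HFD and NCD values did not overlap, which the choice of genes in part required. Of 1076 tested members of the lists, 11 reached the filter only through the KO HFD libraries, 8 of them called higher. Another 27 reached it only through the KO chow libraries, 7 of them called lower. Counting both genotypes, 73 members reached it only through HFD libraries and 55 only through chow libraries. Among all tested genes these numbers were 864 and 1179. The direction of all such genes was in part fixed by the filter. Genes said to have risen or fallen passed the test, and for all others the values are given without such a verb.

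The split between rises and falls depended on how libraries were scaled to each other. Quantile normalization gave 3989 genes higher and 4814 lower, and centring each library on its median gave 3824 and 5188. Rescaling the nuclear genes to the same sum in every library gave 5064 and 3600, and rescaling all genes 6083 and 2896. The median of all genes moved from 0.04 to -0.11 under centring and 0.18 under rescaling of all genes. Across these 5 scalings 3794 genes stayed higher, 2847 stayed lower and 11 were called in opposite directions. By size, 1568 genes rose and 804 fell by at least 1 on the log2 scale, 455 and 117 by at least 2, and 51 and 5 by at least 4. The split at 1 also moved with the scaling, to 1403 and 970 under quantile normalization and 1290 and 1140 under centring.

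**Figure D1:**
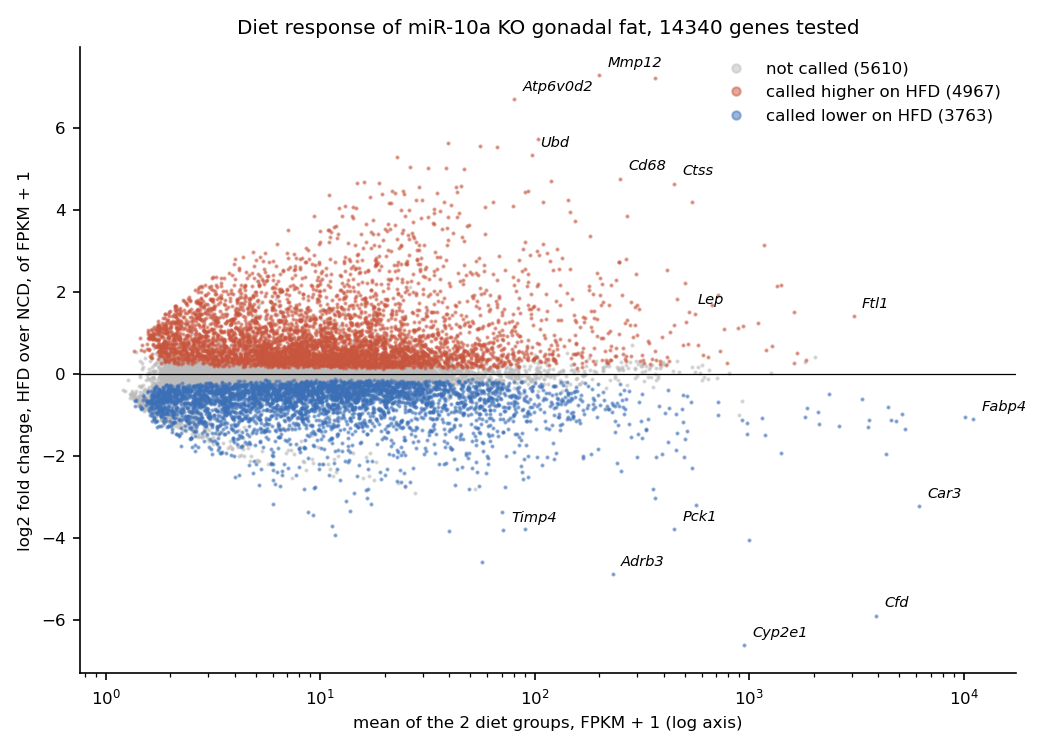
Log2 fold change of FPKM + 1 (HFD over NCD, vertical axis) against the mean of the 2 diet groups in FPKM + 1 (horizontal, log axis) for each of the 14340 tested genes, coloured by call. Rises reach 7.29 (Mmp12) and falls -6.61 (Cyp2e1), and the falls of abundant genes such as Car3, Cfd and Fabp4 lie at the right edge.

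The most abundant transcripts differed between the diets. On NCD the 10 most abundant genes held 18.4% to 21.2% of summed FPKM, and on HFD 9.13% to 11.1%, with no overlap. Genes of the mitochondrial genome held 15.2% to 17.5% on NCD and 7.52% to 9.83% on HFD. Car3, a carbonic anhydrase that is among the most abundant proteins of fat, was at 9916, 12125 and 11203 FPKM on NCD and 1410.0, 1814 and 638 FPKM on HFD and fell (log2 fold change -3.23, SE 0.34, adjusted p = 1.44e-05). Ftl1, the ferritin light chain, was at 1702, 1906 and 1408 FPKM on NCD and 4314, 3965 and 5114 FPKM on HFD and rose (log2 fold change 1.42, SE 0.15, adjusted p = 1.47e-05). Psap, the precursor of lysosomal saposins, was at 533, 475 and 497 FPKM on NCD and 2162, 1939 and 2802 FPKM on HFD and rose by 2.18 (SE 0.15). The list of 30 lysosomal genes held 0.585% to 0.687% of summed FPKM on NCD and 2.4% to 3.29% on HFD, while the list of 22 adipokine genes, tested or not, held 2.6% to 4.13% on NCD and 0.558% to 0.929% on HFD.

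**Figure D2:**
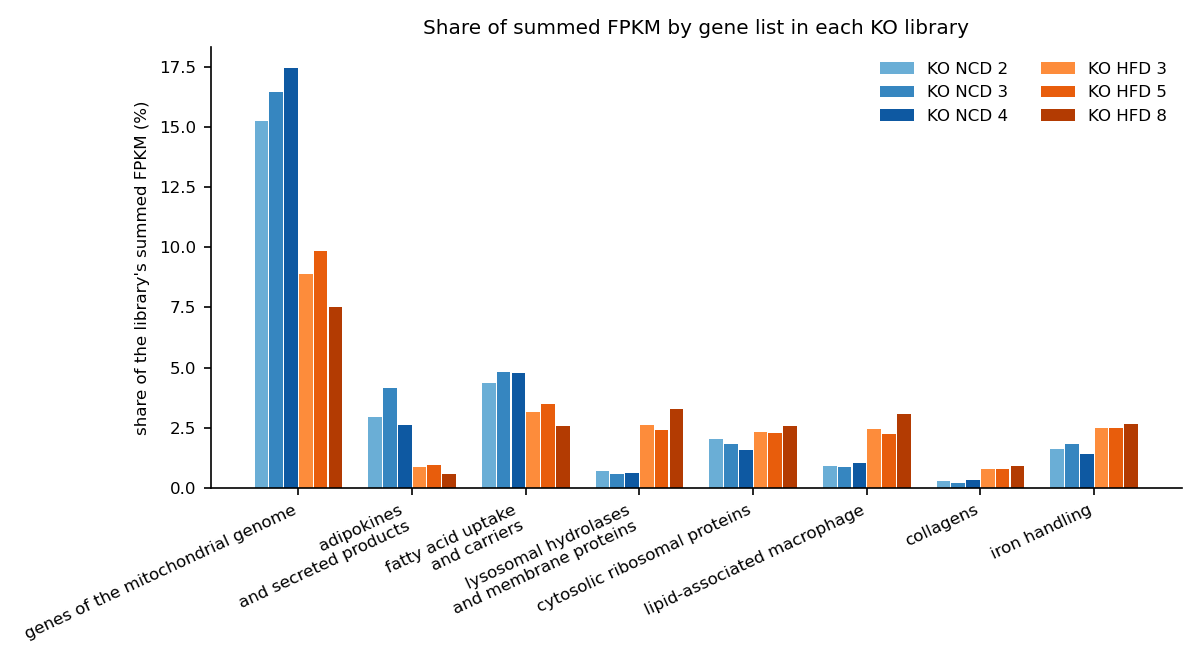
Share of each KO library's summed FPKM (vertical axis, %) held by all genes of the mitochondrial genome and by 7 gene lists, with the 3 NCD libraries in blue and the 3 HFD libraries in orange. The share of the mitochondrial genome lies between 15.2% and 17.5% on NCD and between 7.52% and 9.83% on HFD, and the shares of lysosomal, macrophage, collagen and ribosomal lists are higher in each HFD library than in each NCD library.

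Macrophage genes rose on HFD. In the pan-macrophage list, 15 of 16 tested members were called higher and 1 lower, with a median log2 fold change of 2.92. Cd68, a lysosomal glycoprotein used as a macrophage marker, was at 18.9, 16.9 and 14.4 FPKM on NCD and 463, 418 and 566 FPKM on HFD, and its groups did not overlap (log2 fold change 4.77, SE 0.18, adjusted p = 3.25e-08). Itgam, the alpha chain of the complement receptor CR3, was at 6.03, 3.47 and 4.94 FPKM on NCD and 57.5, 52.5 and 91.1 FPKM on HFD (log2 fold change 3.53, SE 0.26, adjusted p = 1.24e-06). Tyrobp, the adaptor through which many myeloid receptors signal, rose by 3.86 (SE 0.16), and Lyz2, the myeloid lysozyme, by 3.16 (SE 0.19). KO_HFD 8 was the highest of the 3 HFD libraries for each of these genes. Mertk, a receptor for the uptake of dying cells, went the other way, from 14.2, 12.2 and 18.7 FPKM on NCD to 10.9, 9.74 and 10 FPKM on HFD (log2 fold change -0.50, SE 0.12, adjusted p = 0.00381).

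Genes of lipid-associated macrophages, the lipid-loaded cells of obese fat, formed the list with the highest median of the 69: 15 of 16 tested members were called higher and 1 lower, with a median log2 fold change of 3.97. Itgax, the integrin CD11c, was at 1.46, 1.0 and 1.38 FPKM on NCD and 98.9, 89.3 and 136 FPKM on HFD (log2 fold change 5.56, SE 0.16, adjusted p = 4.23e-09). Lgals3, the lectin galectin-3, was at 58.1, 49.4 and 54.7 FPKM on NCD and 952, 822 and 1289 FPKM on HFD (log2 fold change 4.19, SE 0.21). Plin2, a lipid droplet coat protein of many cell types, was at 111, 124 and 122 FPKM on NCD and 630.0, 625 and 870.1 FPKM on HFD (log2 fold change 2.55, SE 0.16). Spp1, the secreted protein osteopontin, was at 4.13, 0.464 and 0.291 FPKM on NCD and 53.9, 56.3 and 109 FPKM on HFD (log2 fold change 5.04, SE 0.52, adjusted p = 1.20e-05); KO_NCD 2 was well above the other chow libraries but below each HFD library. Lpl, the lipase that frees fatty acids from lipoproteins and is made by adipocytes as well, was the member called lower (log2 fold change -0.48, SE 0.15, adjusted p = 0.0165); it was not called under every scaling.

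The promoters of Mmp12, the macrophage elastase, and of Ctss, the lysosomal protease cathepsin S, are shown because both hold the letters GAGGAAGT, a site type bound by the myeloid ETS factor PU.1, on one strand or the other (capitals). The windows are RefSeq GRCm38.p6, run 250 bases before to 50 after the annotated start, and are written in the direction of transcription.
Mmp12, chr9:7344147-7344446, plus strand: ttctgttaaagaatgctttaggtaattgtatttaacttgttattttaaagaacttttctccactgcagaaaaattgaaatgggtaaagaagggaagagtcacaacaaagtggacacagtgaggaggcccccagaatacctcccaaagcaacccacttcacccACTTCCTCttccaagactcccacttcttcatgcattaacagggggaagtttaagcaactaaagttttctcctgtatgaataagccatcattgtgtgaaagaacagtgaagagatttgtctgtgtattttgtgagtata
Ctss, chr3:95526536-95526835, plus strand: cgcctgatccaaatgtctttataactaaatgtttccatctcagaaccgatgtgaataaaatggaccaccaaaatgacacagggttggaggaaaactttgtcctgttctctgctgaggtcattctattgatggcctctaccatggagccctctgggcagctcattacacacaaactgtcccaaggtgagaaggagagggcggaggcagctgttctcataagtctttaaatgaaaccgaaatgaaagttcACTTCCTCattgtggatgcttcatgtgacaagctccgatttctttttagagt
The match began 88 bases before the start of Mmp12 and 2 bases before that of Ctss. Of the promoter windows of 10711 tested genes, 3.26% held this motif, against 7.16% of windows of genes that rose by at least 1 and 2.33% of windows of genes that fell by at least 1. A match is a description of these letters and not evidence of binding. Ctss was at 39, 27.9 and 32.2 FPKM on NCD and 801, 687 and 1096 FPKM on HFD (log2 fold change 4.65, SE 0.20, adjusted p = 4.92e-08). Mmp12 was at 2.4, 0.55 and 1.27 FPKM on NCD and 312, 222 and 655 FPKM on HFD (log2 fold change 7.29, SE 0.40, adjusted p = 1.72e-07).

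Genes typical of macrophages resident in lean fat did not move together. In that list, 5 of 13 tested members were called higher and 4 lower, with a median log2 fold change of -0.07; its median was 0.08 under rescaling of all genes and 0.18 without KO_NCD 2. Mrc1, the mannose receptor CD206, was at 16.7, 11.2 and 16.2 FPKM on NCD and 73.8, 60.6 and 92 FPKM on HFD and rose (log2 fold change 2.29, SE 0.19, adjusted p = 2.97e-06), as did Folr2, folate receptor beta, by 2.54 (SE 0.18). Cd163, the haemoglobin scavenger receptor, was at 14.7, 9.16 and 15.7 FPKM on NCD and 5.82, 3.02 and 4.63 FPKM on HFD and fell (log2 fold change -1.37, SE 0.22, adjusted p = 3.32e-04). Timd4, a receptor for phosphatidylserine on long-lived resident macrophages, fell from 2.56, 1.41 and 1.36 FPKM to 0.632, 0.735 and 0.772 FPKM (log2 fold change -0.67, SE 0.17). Lyve1, also found on lymphatic endothelium, was at 13.4, 6.23 and 9.15 FPKM on NCD and 9.24, 7.49 and 9.56 FPKM on HFD (adjusted p = 0.853), and its groups overlapped.

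Monocyte and dendritic cell genes were also divided. Of 12 tested monocyte and dendritic cell genes, 7 rose and 4 fell. Among these, 2 of the falls reached the filter only through the KO chow libraries and 1 of the rises only through the KO HFD libraries. Their direction was in part fixed by the filter. Irf8, a transcription factor of both lineages, was at 3.71, 3.92 and 3.47 FPKM on NCD and 31.5, 28 and 32.8 FPKM on HFD (log2 fold change 2.75, SE 0.12, adjusted p = 6.10e-08). Ccr2, the receptor that brings monocytes into tissue, rose by 1.21 (SE 0.22). Itgae, the integrin CD103, fell from 1.43, 1.78 and 2.04 FPKM to 0.32, 0.487 and 0.366 FPKM (log2 fold change -0.98, SE 0.13), and Siglech, a marker of plasmacytoid dendritic cells, from 1.56, 0.743 and 1.01 FPKM to 0.165, 0.172 and 0.517 FPKM (log2 fold change -0.71, SE 0.17). Ly6c2, a marker of inflammatory monocytes, was at 8.32, 8.13 and 6.77 FPKM on NCD and 8.25, 7.42 and 8.39 FPKM on HFD (adjusted p = 0.737). S100a8, a calcium-binding protein of neutrophils and monocytes, was at 2.81, 2.75 and 4.25 FPKM on NCD and 24.9, 31.5 and 18.7 FPKM on HFD and rose (log2 fold change 2.6, SE 0.17). Elane, neutrophil elastase, fell from 1.26, 1.56 and 1.24 FPKM to 0.128, 0 and 0 FPKM (log2 fold change -1.17, SE 0.13). It reached the filter only through the KO chow libraries, so its fall was in part fixed by the filter. Of 12 neutrophil and eosinophil genes only 4 were tested, with 3 called higher and Elane the 1 called lower. Of these 4, 2 reached the filter only through HFD libraries of either genotype.

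Receptors and effectors of phagocytes rose as sets. For the phagocyte NADPH oxidase, which makes superoxide, 6 of 6 tested members were called higher and 0 lower, with a median log2 fold change of 2.84; the catalytic subunit gene Cybb was at 4.46, 3.31 and 4.51 FPKM on NCD and 69.3, 58 and 91.6 FPKM on HFD (log2 fold change 3.84, SE 0.20, adjusted p = 1.52e-07). For Toll-like receptors and their adaptors, 17 of 19 tested members were called higher and 0 lower, with a median log2 fold change of 1.46. The endosomal receptor Tlr13 was at 0.578, 0.53 and 0.603 FPKM on NCD and 27.2, 25.1 and 42.2 FPKM on HFD (log2 fold change 4.33, SE 0.19). Tlr8, also endosomal, was at 1.48, 0.885 and 1.87 FPKM on NCD and 29.1, 24.2 and 34.6 FPKM on HFD (log2 fold change 3.66, SE 0.20). The sensor of flagellin at the cell surface, Tlr5, was at 2.34, 1.6 and 3.09 FPKM on NCD and 1.92, 2.51 and 2.1 FPKM on HFD (adjusted p = 0.772). For inflammasome and pyroptosis genes, 11 of 11 tested members were called higher and 0 lower, with a median log2 fold change of 1.5, from 0.18 for Nek7, which was not called under every scaling, to 2.33 for Naip2. Casp1, the protease that matures interleukin 1 beta, was at 6.4, 6.79 and 5.85 FPKM on NCD and 31.6, 28.4 and 39 FPKM on HFD (log2 fold change 2.2, SE 0.10, adjusted p = 6.91e-08).

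For Fc receptors, which bind antibody, 6 of 8 tested members were called higher and 1 lower, with a median log2 fold change of 2.26. Fcgr4 rose from 0.774, 1.4 and 0.615 FPKM to 16, 11.2 and 23.3 FPKM (log2 fold change 3.17, SE 0.23). Fcgrt, the neonatal Fc receptor that recycles IgG in many cell types, fell by 0.51 (SE 0.08). For C-type lectin receptors, 10 of 12 tested members were called higher and 1 lower, with a median log2 fold change of 2.35. Clec7a, the beta-glucan receptor dectin-1, was at 3.15, 2.32 and 3.14 FPKM on NCD and 73.1, 57.5 and 82 FPKM on HFD (log2 fold change 4.21, SE 0.18, adjusted p = 4.35e-08). Clec4d rose from under 1 FPKM in each chow library to 14.6, 11.3 and 42.5 FPKM (log2 fold change 3.85, SE 0.36), with KO_HFD 8 well above the other HFD libraries. For the MS4A family of membrane proteins, 8 of 11 tested members were called higher and 0 lower, with a median log2 fold change of 0.95. Ms4a7 was at 3.61, 2.78 and 3.03 FPKM on NCD and 60.6, 52.8 and 73.8 FPKM on HFD (log2 fold change 3.93, SE 0.14). Ms4a4a, a close relative, was at 8.59, 5.88 and 8.71 FPKM on NCD and 7.58, 7.83 and 6.82 FPKM on HFD (adjusted p = 0.821).

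Complement genes moved in both directions. Of 19 tested, 13 rose and 4 fell. C1qc, a chain of the initiating complex C1q made by macrophages, was at 81.4, 55.6 and 56.1 FPKM on NCD and 432, 419 and 437 FPKM on HFD (log2 fold change 2.74, SE 0.15, adjusted p = 1.63e-07). C3ar1, the receptor for the C3a fragment, rose from 3.44, 2.22 and 2.79 FPKM to 76.6, 69.9 and 98.4 FPKM (log2 fold change 4.43, SE 0.19). C2 fell from 78.5, 87.9 and 59.3 FPKM to 17.7, 19 and 19.8 FPKM (log2 fold change -1.92, SE 0.14). C6, of the membrane attack complex, fell by 1.86 (SE 0.27). Cfd, the protease adipsin made by adipocytes, was at 6429, 11594 and 5024 FPKM on NCD and 122, 243 and 57.9 FPKM on HFD (log2 fold change -5.9, SE 0.49, adjusted p = 2.79e-06). Within this list the highest chow value of Cfd and of C6 lay in KO_NCD 3.

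Signalling molecules of inflammation rose in part. For chemokine ligands, 16 of 21 tested members were called higher and 0 lower, with a median log2 fold change of 1.3. Ccl7, which attracts monocytes, was at 4.39, 3.5 and 3.79 FPKM on NCD and 30.6, 22.6 and 29.2 FPKM on HFD (log2 fold change 2.53, SE 0.22, adjusted p = 3.14e-06). Ccl3, a macrophage inflammatory protein, was below 0.1 FPKM in each chow library and at 6.22, 5.18 and 6.23 FPKM on HFD (log2 fold change 2.69, SE 0.11). The interferon-gamma response chemokine Cxcl9 was at 12.9, 16.9 and 14.8 FPKM on NCD and 9.74, 7.84 and 21.6 FPKM on HFD (adjusted p = 0.451), and its groups overlapped. For chemokine receptors, 8 of 12 tested members were called higher and 0 lower, with a median log2 fold change of 0.96. Of the 12, 6 reached the filter only through HFD libraries of either genotype. Among cytokines and their receptors, 10 of 14 rose. Il1rn, the antagonist of the interleukin 1 receptor, was at 0.522, 0.206 and 0.156 FPKM on NCD and 24.9, 21.4 and 59.9 FPKM on HFD (log2 fold change 4.68, SE 0.37, adjusted p = 1.93e-06), a larger difference than that of Tnf, at 0.371, 0.0987 and 0.358 FPKM on NCD and 1.7, 1.87 and 2.54 FPKM on HFD (log2 fold change 1.25, SE 0.16). Il34, a ligand of the receptor for CSF1 made outside the myeloid lineage, fell from 19.3, 14.4 and 13.9 FPKM to 7.89, 7.75 and 5.44 FPKM (log2 fold change -1.07, SE 0.16).

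Antigen presentation genes rose, and the class II list had the higher median. For MHC class II, which serves macrophages, dendritic cells and B cells, 8 of 9 tested members were called higher and 0 lower, with a median log2 fold change of 1.68. Ifi30, the thiol reductase of antigen processing, was at 25.7, 21.1 and 18.2 FPKM on NCD and 158, 163 and 224 FPKM on HFD (log2 fold change 3.01, SE 0.17, adjusted p = 2.38e-07). For class I and the immunoproteasome, 10 of 14 tested members were called higher and 0 lower, with a median log2 fold change of 0.45, with 7 called higher under quantile normalization or centring. Ubd, a ubiquitin-like modifier induced by inflammatory cytokines, stood apart within that list at 4.85, 3.74 and 2.69 FPKM on NCD and 185, 194 and 187 FPKM on HFD (log2 fold change 5.34, SE 0.15, adjusted p = 4.23e-09); the next member was H2-K1, at 0.71. Among interferon-stimulated genes, 12 of 22 tested members were called higher and 0 lower, with a median log2 fold change of 0.39, with 9 called higher under quantile normalization or centring. Oas1a, a sensor of double-stranded RNA, was at 2.57, 2.77 and 1.5 FPKM on NCD and 13.5, 11.3 and 16.5 FPKM on HFD (log2 fold change 2.18, SE 0.17, adjusted p = 1.96e-06). Irf7, a regulator of interferon genes, was at 13.1, 16 and 10 FPKM on NCD and 12.1, 11.4 and 14.2 FPKM on HFD (adjusted p = 0.852).

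The Oas1a promoter is shown with its matches to the interferon-stimulated response element core (GAAA, any 2 bases, then GAAA again) in capitals.
Oas1a, chr5:120907476-120907775, minus strand: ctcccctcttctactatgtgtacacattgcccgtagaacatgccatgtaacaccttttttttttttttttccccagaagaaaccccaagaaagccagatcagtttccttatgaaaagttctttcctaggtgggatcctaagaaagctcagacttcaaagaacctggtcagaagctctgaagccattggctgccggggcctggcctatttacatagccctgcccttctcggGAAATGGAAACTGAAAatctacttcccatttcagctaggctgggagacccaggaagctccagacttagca
Its 2 overlapping matches began 20 and 14 bases before the annotated start. This core was found in 10 of 17 promoter windows of the interferon-stimulated list (58.8%), in genes that were called and in genes that were not, and in 3.16% of the windows of tested genes.

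Lysosomal genes rose across the list: 29 of 30 tested members were called higher and 0 lower, with a median log2 fold change of 1.58. Ctsk, the collagen-degrading protease cathepsin K, was at 10.4, 9.79 and 10.3 FPKM on NCD and 182, 196 and 238 FPKM on HFD (log2 fold change 4.2, SE 0.09, adjusted p = 1.40e-09). Lipa, the acid lipase that frees cholesterol and fatty acids from lipoprotein and droplet lipid, was at 21.5, 18.6 and 20.2 FPKM on NCD and 259, 239.8 and 359.8 FPKM on HFD (log2 fold change 3.75, SE 0.17, adjusted p = 6.00e-08). Gla, the alpha-galactosidase of glycolipid breakdown, was at 2.42, 2.28 and 2.44 FPKM on NCD and 18.9, 17.6 and 27.7 FPKM on HFD (log2 fold change 2.7, SE 0.17). Of membrane proteins, Lamp1 rose by 0.92 (SE 0.07) and Mcoln1, a calcium channel of the lysosome, by 0.37 (SE 0.05). Gaa, the enzyme that digests glycogen in lysosomes, was at 36.6, 28.3 and 28.8 FPKM on NCD and 35.5, 34.5 and 34.9 FPKM on HFD (adjusted p = 0.139).

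The vacuolar proton pump acidifies lysosomes, and 17 of its 18 tested genes rose, 13 of them under centring. Subunits that exist in more than one form differed in size of response. Atp6v0d2, a d subunit of macrophages and osteoclasts, was at 0.599, 0.365 and 0.57 FPKM on NCD and 149.8, 133 and 192 FPKM on HFD (log2 fold change 6.71, SE 0.17, adjusted p = 2.42e-09), and the common form Atp6v0d1 was at 59.2, 65.8 and 59.4 FPKM on NCD and 75.1, 74.9 and 77.8 FPKM on HFD (log2 fold change 0.30, SE 0.06, not called under every scaling). Tcirg1, the a3 subunit, rose from 11.4, 13.9 and 11.8 FPKM to 88.7, 77.7 and 120.2 FPKM (log2 fold change 2.84, SE 0.19), and Atp6v0a2 by 0.44 (SE 0.07). The transcription factors of the MiT family, which drive lysosomal genes, rose as well: Mitf by 1.57 (SE 0.16), Tfec by 1.31 (SE 0.19), Tfeb by 1.21 (SE 0.10) and Tfe3 by 1.03 (SE 0.07). The autophagy list that includes them was mixed, with 8 higher and 5 lower of 18. Map1lc3a, a precursor of the autophagosome protein LC3, fell by 0.72 (SE 0.17).

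MiT factors bind the CLEAR element, whose E-box core is TCACGTGA, and the Gla promoter is shown because it holds this core at 2 places, in capitals.
Gla, chrX:134600956-134601255, minus strand: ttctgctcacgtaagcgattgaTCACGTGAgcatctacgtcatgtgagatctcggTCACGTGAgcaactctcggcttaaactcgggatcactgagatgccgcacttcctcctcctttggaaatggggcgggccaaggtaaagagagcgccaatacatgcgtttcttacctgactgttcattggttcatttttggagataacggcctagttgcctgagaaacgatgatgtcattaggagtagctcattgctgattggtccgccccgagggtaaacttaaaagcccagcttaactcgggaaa
The matches began 228 and 195 bases before the annotated start. The core was found in 4 of 26 windows of the lysosomal list (15.4%; Ctsa, Ctsd, Mcoln1 and Gla), in 3 of 16 windows of the proton pump list (18.8%) and in 1.8% of windows of tested genes. Its share was 1.52% among genes that rose by at least 1, below that of all tested genes.

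Lymphocyte lists had fewer called members and lower medians than the pan-macrophage and lipid-associated macrophage lists. For T and NK cells, 4 of 6 tested members were called higher and 0 lower, with a median log2 fold change of 0.64. Only 6 of the 16 list genes were tested, and 1 of the 4 rises reached the filter only through the KO HFD libraries. Changes near 1 FPKM are understated on this scale, so this median is not on equal terms with those of abundant macrophage genes. Cd3e, a chain of the T cell receptor complex, was at 0.476, 0.599 and 0.274 FPKM on NCD and 0.933, 1.36 and 1.49 FPKM on HFD (log2 fold change 0.64, SE 0.18, adjusted p = 0.0113). Of 9 B and plasma cell genes, 1 rose, Cd22, from 0.124, 0.879 and 0.346 FPKM to 5.02, 5.59 and 5.69 FPKM (log2 fold change 2.18, SE 0.17). Immunoglobulin and T cell receptor V segments numbered 87 among tested genes, of which 15 were called higher and 0 lower by limma. Among all tested genes 34.6% were called higher and 26.2% lower. The median log2 fold change of the V segments was 0.93, against 0.04 for all tested genes.

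Of 10 tested mast cell genes, 7 rose and 0 were called lower; of the 7, Mrgprb1 and Tpsab1 reached the filter of 1 FPKM only through the 3 KO HFD libraries, so their rise was in part fixed by the filter. Proteases stored in mast cell granules led the others: Cpa3, a carboxypeptidase, was at 3.57, 1.73 and 2.0 FPKM on NCD and 26.4, 26.4 and 28.8 FPKM on HFD (log2 fold change 3.08, SE 0.21, adjusted p = 7.88e-07). Mcpt4, a chymase, was at 9.68, 5.69 and 5.4 FPKM on NCD and 48.2, 50.7 and 46 FPKM on HFD (log2 fold change 2.68, SE 0.21, adjusted p = 1.74e-06). Tpsb2, a tryptase, was at 6.83, 4.32 and 4.19 FPKM on NCD and 38.9, 40 and 37.7 FPKM on HFD (log2 fold change 2.73, SE 0.19, adjusted p = 8.50e-07). The 3 HFD libraries lay close to each other for these genes and well above the chow libraries, of which KO_NCD 2 was the highest. Fcer1a, the IgE-binding chain, rose from 0.453, 0.227 and 0.54 FPKM to 2.66, 3.19 and 4.12 FPKM (log2 fold change 1.61, SE 0.16). The growth factor receptor gene Kit was at 3.62, 2.14 and 3.13 FPKM on NCD and 4.44, 4.15 and 3.0 FPKM on HFD (adjusted p = 0.117). Gata2, a transcription factor of the lineage, was at 3.83, 4.02 and 3.38 FPKM on NCD and 2.36, 3.59 and 1.75 FPKM on HFD (adjusted p = 0.0552). Both are made by other cells too, and their groups overlapped. Hdc, the other tested member of the list that was not called, had a log2 fold change of -0.46 (adjusted p = 0.49).

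Proliferation genes rose almost as a block. For DNA replication and mitosis, 26 of 27 tested members were called higher and 0 lower, with a median log2 fold change of 1.81. Of the 27, 14 reached the filter of 1 FPKM only through HFD libraries of either genotype, so their direction was in part fixed by the filter. Top2a, which untangles replicated DNA, was at 1.08, 0.77 and 1.47 FPKM on NCD and 11, 10.1 and 15.1 FPKM on HFD (log2 fold change 2.63, SE 0.20, adjusted p = 1.66e-06). Mki67, the proliferation marker Ki-67, was at 0.689, 0.64 and 1.03 FPKM on NCD and 7.75, 6.57 and 11.4 FPKM on HFD (log2 fold change 2.4, SE 0.21, adjusted p = 4.28e-06). Pcna, the sliding clamp of DNA polymerase, was at 30.7, 30.3 and 28.8 FPKM on NCD and 95, 88.5 and 122 FPKM on HFD (log2 fold change 1.72, SE 0.13). KO_HFD 8 was the highest library for each of them. Mcm7, a subunit of the replicative helicase, was at 12.1, 11.9 and 10.4 FPKM on NCD and 12.5, 13.4 and 13.4 FPKM on HFD (adjusted p = 0.0953), although Mcm2, Mcm3, Mcm4, Mcm5 and Mcm6 of the same ring rose by 1.57, 1.81, 0.85, 1.9 and 1.9.

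Cdk1, the kinase that drives entry into mitosis, was at 0.467, 0.4 and 0.434 FPKM on NCD and 3.95, 4.1 and 4.88 FPKM on HFD (log2 fold change 1.88, SE 0.12, adjusted p = 5.71e-07). Its promoter is shown because it holds 3 CCAAT boxes and 2 copies of TTTGAA, the core of the cell cycle homology region that restrains such genes in resting cells; both motifs are in capitals, on either strand.
Cdk1, chr10:69352863-69353162, minus strand: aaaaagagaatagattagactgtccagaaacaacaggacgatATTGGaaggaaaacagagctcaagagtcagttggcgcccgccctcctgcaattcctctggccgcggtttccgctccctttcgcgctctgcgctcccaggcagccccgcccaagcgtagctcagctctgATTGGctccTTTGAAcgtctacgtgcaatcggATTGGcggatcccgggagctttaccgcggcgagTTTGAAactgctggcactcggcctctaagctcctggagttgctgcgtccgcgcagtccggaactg
The CCAAT matches began 208, 80 and 48 bases and the TTTGAA matches 71 and 15 bases before the annotated start. CCAAT was found in 21 of 24 windows of the replication and mitosis list (87.5%) and in 37.4% of windows of tested genes, and TTTGAA in 11 of 24 (45.8%) and in 12.4%.

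Stress and immediate early genes rose selectively. Atf3, a stress-induced transcription factor, was at 2.05, 1.75 and 1.56 FPKM on NCD and 84.1, 72.1 and 112 FPKM on HFD (log2 fold change 5.0, SE 0.18, adjusted p = 1.97e-08). Egr2 was at 0.813, 0.732 and 0.664 FPKM on NCD and 17.6, 15.4 and 24.9 FPKM on HFD (log2 fold change 3.52, SE 0.19, adjusted p = 1.52e-07). Egr1 was at 9.41, 20.8 and 7.38 FPKM on NCD and 14.1, 20.3 and 16.8 FPKM on HFD (adjusted p = 0.143). Jun was at 27.6, 16.8 and 25.5 FPKM on NCD and 28.6, 27 and 29.4 FPKM on HFD (adjusted p = 0.145). In the whole immediate early list, 9 of 18 rose and Nr4a2 fell. Nr4a2 reached the filter only through the KO chow libraries, so its fall was in part fixed by the filter. Of 19 genes of p53, senescence and apoptosis, 14 rose; Cdkn1a, the cell cycle inhibitor p21, was at 21.7, 11.9 and 25.7 FPKM on NCD and 69.6, 56.6 and 63.5 FPKM on HFD (log2 fold change 1.69, SE 0.24). Bcl2a1b, an inhibitor of apoptosis in blood cells, rose by 3.63 (SE 0.14). In the unfolded protein response, 13 of 20 rose, among them the chaperone genes Hspa5 by 0.87 (SE 0.10) and Calr by 0.96 (SE 0.10). Xbp1, a transcription factor of that response, fell by 0.59 (SE 0.15). Asns, which makes asparagine, fell from 24.2, 33.6 and 29.4 FPKM to 9.9, 11.8 and 9.18 FPKM (log2 fold change -1.41, SE 0.13). For cytosolic ribosomal proteins the number called higher was 14 of 28, 5 under centring and 22 under rescaling of all genes, with medians from 0.13 to 0.43.

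Most regulators of adipocyte identity fell. For adipogenic transcription factors, 1 of 24 tested members was called higher and 15 lower, with a median log2 fold change of -0.65. Pparg, the master regulator of fat cells, was at 102, 147 and 123 FPKM on NCD and 64.7, 61.3 and 41 FPKM on HFD (log2 fold change -1.16, SE 0.18, adjusted p = 2.05e-04), and its partner Cebpa at 212, 257 and 209 FPKM on NCD and 99.96, 112 and 81.2 FPKM on HFD (log2 fold change -1.21, SE 0.14, adjusted p = 2.70e-05). Klf15, which drives amino acid and glucose enzymes, was at 30, 33.8 and 30.8 FPKM on NCD and 5.79, 5.57 and 2.82 FPKM on HFD (log2 fold change -2.55, SE 0.23, adjusted p = 4.22e-06). KO_HFD 8 was the lowest library for these 3 genes. Cebpb, an early factor of adipogenesis also active in myeloid cells, rose from 11.5, 11.9 and 8.28 FPKM to 14.6, 17.6 and 16.7 FPKM (log2 fold change 0.59, SE 0.18). Nr1h3, the sterol-sensing receptor LXR alpha, was at 36.8, 48.6 and 39.3 FPKM on NCD and 38.7, 41.9 and 32.4 FPKM on HFD (adjusted p = 0.293).

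Secreted products of adipocytes went in both directions, 7 higher and 9 lower of 21. Among those that rose, Mest, a gene that marks expanding fat, was at 38.6, 50 and 47.1 FPKM on NCD and 238, 271 and 134 FPKM on HFD (log2 fold change 2.17, SE 0.25, adjusted p = 2.54e-05). Saa3, an acute-phase protein, was at 2.29, 7.29 and 4.56 FPKM on NCD and 53.1, 56.4 and 38.2 FPKM on HFD (log2 fold change 3.22, SE 0.35, adjusted p = 2.08e-05). Among those that fell, Agt, the precursor of angiotensin, was at 141, 246 and 112 FPKM on NCD and 13.3, 12.9 and 6.81 FPKM on HFD (log2 fold change -3.77, SE 0.29, adjusted p = 1.73e-06). Rbp4, the carrier of retinol, was at 417, 433 and 413 FPKM on NCD and 81.7, 113 and 56.6 FPKM on HFD (log2 fold change -2.37, SE 0.21, adjusted p = 4.66e-06). Sfrp5, an inhibitor of Wnt signals, was at 51.6, 20.6 and 55.5 FPKM on NCD and 58.7, 49.9 and 25.3 FPKM on HFD (adjusted p = 0.842).

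Lep, the gene of leptin, was at 224, 211 and 388 FPKM on NCD and 977, 811 and 529.7 FPKM on HFD and rose (log2 fold change 1.5, SE 0.31, adjusted p = 0.00155); the lowest HFD library was KO_HFD 8 and the highest chow library KO_NCD 4, and the groups did not overlap. Its promoter is shown because it holds the palindrome TTGCGCAA, a C/EBP site, in capitals.
Lep, chr6:29059971-29060270, plus strand: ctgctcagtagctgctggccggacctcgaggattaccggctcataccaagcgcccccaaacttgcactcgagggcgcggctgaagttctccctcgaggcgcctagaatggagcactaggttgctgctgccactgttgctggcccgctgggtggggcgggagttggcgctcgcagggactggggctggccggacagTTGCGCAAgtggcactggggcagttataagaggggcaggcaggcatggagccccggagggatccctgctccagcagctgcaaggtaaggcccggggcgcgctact
The site began 55 bases before the annotated start, and 0.27% of windows of tested genes held these letters.

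Most genes of lipolysis fell. In the list of adrenergic receptors and lipolysis, 2 of 23 tested members were called higher and 14 lower, with a median log2 fold change of -0.60. Lipe, hormone-sensitive lipase, was at 653, 761 and 704 FPKM on NCD and 221, 256 and 129.9 FPKM on HFD (log2 fold change -1.85, SE 0.22, adjusted p = 3.93e-05). Pnpla2, adipose triglyceride lipase, was at 598, 752 and 548 FPKM on NCD and 228, 239 and 144 FPKM on HFD (log2 fold change -1.65, SE 0.19, adjusted p = 2.61e-05). Aqp7, the channel through which glycerol leaves, fell by 1.09 (SE 0.20). Adrb3, the beta adrenergic receptor of adipocytes, was at 424, 539 and 369 FPKM on NCD and 18.1, 17.2 and 8.49 FPKM on HFD (log2 fold change -4.88, SE 0.28). Adrb1 fell by 0.89 (SE 0.26). Adcy3, an adenylyl cyclase downstream of these receptors, rose from 6.51, 5.48 and 6.37 FPKM to 17.9, 18 and 20.4 FPKM (log2 fold change 1.47, SE 0.09, adjusted p = 3.80e-07). Adcy6 fell by 0.96 (SE 0.15).

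Insulin signalling genes were divided, 7 higher and 10 lower of 22. Slc2a4, the insulin-regulated glucose transporter GLUT4, was at 77.1, 96.4 and 91.4 FPKM on NCD and 17, 23.1 and 10.3 FPKM on HFD (log2 fold change -2.39, SE 0.26, adjusted p = 2.02e-05). Irs1, which relays the signal of the insulin receptor, was at 7.81, 9.76 and 8.23 FPKM on NCD and 2.6, 2.42 and 1.9 FPKM on HFD (log2 fold change -1.54, SE 0.12, adjusted p = 1.84e-06). Insr, the receptor itself, fell by 0.85 (SE 0.10). Ptpn1, a phosphatase that switches the receptor off, was at 9.86, 8.82 and 8.94 FPKM on NCD and 22.8, 22.4 and 27.9 FPKM on HFD and rose (log2 fold change 1.31, SE 0.10, adjusted p = 1.73e-06). Slc2a1, the basal transporter GLUT1, rose by 0.58 (SE 0.17), and of the AKT kinases Akt1 rose by 0.72 (SE 0.07) and Akt2 fell by 0.44 (SE 0.12).

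Most genes of fatty acid and triglyceride synthesis fell. For de novo lipogenesis, 1 of 18 tested members were called higher and 10 lower, with a median log2 fold change of -0.81. Acaca, acetyl-CoA carboxylase, was at 50, 48 and 62.7 FPKM on NCD and 14.2, 12.5 and 13.1 FPKM on HFD (log2 fold change -1.93, SE 0.13, adjusted p = 7.87e-07). Thrsp, a lipogenic regulator, was at 536, 692 and 701 FPKM on NCD and 94.4, 97.6 and 51.2 FPKM on HFD (log2 fold change -3.02, SE 0.27, adjusted p = 4.28e-06). Scd1, the main desaturase of fat, was at 5592, 6854 and 8051 FPKM on NCD and 1861, 2293 and 1253 FPKM on HFD (log2 fold change -1.95, SE 0.25), and its relative Scd2 rose from 56.9, 36.3 and 84 FPKM to 118, 112 and 93.9 FPKM (log2 fold change 0.93, SE 0.25). Acly, which feeds acetyl-CoA into the pathway, was at 90.4, 73.5 and 102 FPKM on NCD and 70.8, 70.3 and 68.4 FPKM on HFD (adjusted p = 0.0844).

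For glyceroneogenesis and triglyceride assembly, 1 of 18 tested members were called higher and 11 lower, with a median log2 fold change of -0.57. Pck1, a key enzyme in making the glycerol of triglyceride, was at 892, 771 and 819 FPKM on NCD and 66.1, 90.2 and 33.9 FPKM on HFD (log2 fold change -3.79, SE 0.32, adjusted p = 2.96e-06). Mogat1, a monoacylglycerol acyltransferase, was at 24.2, 40.2 and 25.5 FPKM on NCD and 1.94, 3.84 and 1.6 FPKM on HFD (log2 fold change -3.18, SE 0.29, adjusted p = 5.18e-06). Dgat1 fell by 1.34 (SE 0.17). Dgat2, which catalyses the same last step, was at 515, 639 and 730.2 FPKM on NCD and 645, 671 and 412 FPKM on HFD (adjusted p = 0.605). Uptake and carrier genes were mixed, 9 higher and 5 lower of 17. Fabp5 rose from 92.5, 91 and 99.5 FPKM to 317, 309 and 337 FPKM (log2 fold change 1.76, SE 0.11, adjusted p = 3.95e-07), against a fall of Fabp4 (log2 fold change -1.11, SE 0.22) that was not called under every scaling. Gpihbp1, which holds lipoprotein lipase on capillary walls, fell from 123, 126 and 118 FPKM to 52, 55.1 and 25.5 FPKM (log2 fold change -1.52, SE 0.25). Cd36, the fatty acid translocase, was at 1355, 1445 and 1576 FPKM on NCD and 1706, 1729.6 and 1834 FPKM on HFD (log2 fold change 0.27, SE 0.10, not called under every scaling).

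**Figure D3:**
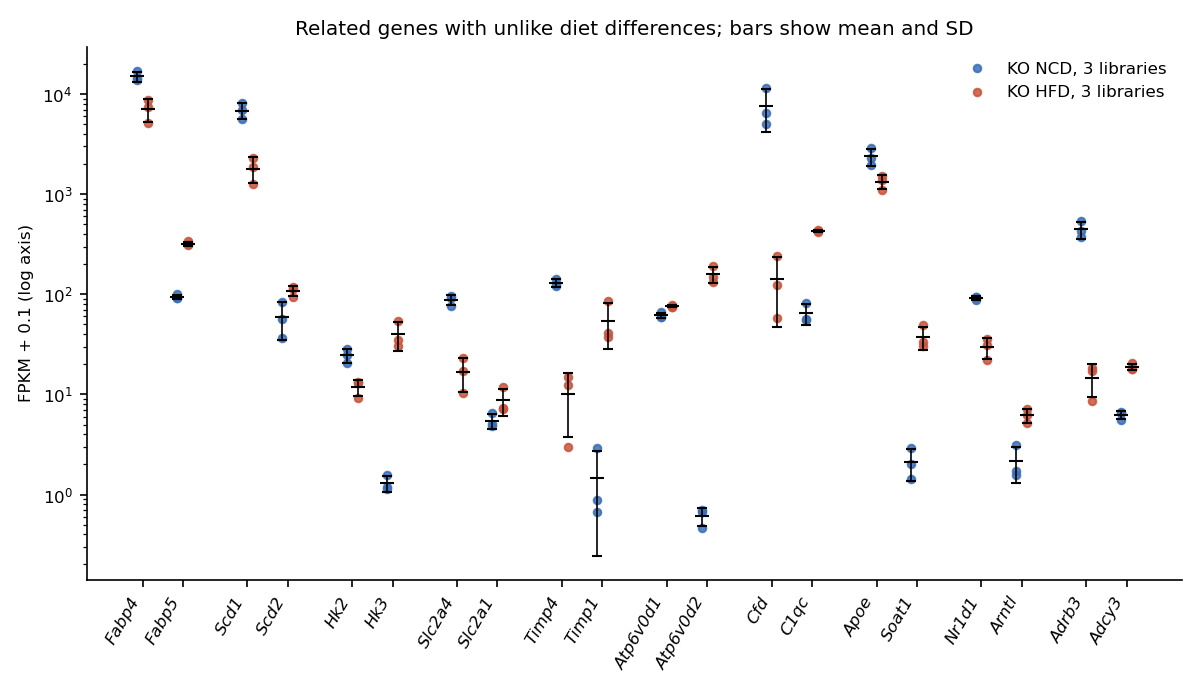
FPKM + 0.1 (log axis) of 10 pairs of related genes in the 3 KO NCD libraries (blue) and the 3 KO HFD libraries (red), with bars for mean and SD. In each pair except Atp6v0d1 and Atp6v0d2, which both rose, one gene is lower and the other higher on HFD, as with Slc2a4 at -2.39 and Slc2a1 at 0.58 on the log2 scale.

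Mitochondrial genes fell in most pathways. For branched-chain amino acid breakdown, 0 of 21 tested members were called higher and 20 lower, with a median log2 fold change of -1.33. Ivd, the dehydrogenase of the leucine branch, was at 72.9, 85.7 and 72.8 FPKM on NCD and 18.6, 22.7 and 13.2 FPKM on HFD (log2 fold change -2.05, SE 0.19, adjusted p = 6.06e-06). Aldh6a1, of the valine branch, was at 169.6, 196 and 181 FPKM on NCD and 47, 55.7 and 31.9 FPKM on HFD (log2 fold change -2.03, SE 0.20, adjusted p = 8.55e-06). Bcat2, which takes the first step, fell by 1.69 (SE 0.17). For the citric acid cycle, 0 of 17 tested members were called higher and 15 lower, with a median log2 fold change of -0.57. Sdha, a subunit of succinate dehydrogenase, was at 149, 167 and 154 FPKM on NCD and 90.2, 94 and 78.9 FPKM on HFD (log2 fold change -0.83, SE 0.10). Idh3a was at 65.5, 71.3 and 83.9 FPKM on NCD and 72, 70.6 and 56.6 FPKM on HFD (adjusted p = 0.379), whereas Idh3g of the same enzyme fell by 0.70 (SE 0.11).

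For the nuclear genes of oxidative phosphorylation, 0 of 34 tested members were called higher and 31 lower, with a median log2 fold change of -0.72. Ndufb8, a subunit of complex I, was at 206, 256 and 198 FPKM on NCD and 104, 105 and 90.7 FPKM on HFD (log2 fold change -1.13, SE 0.11, adjusted p = 9.62e-06). Cox4i1, of complex IV, was at 455, 555 and 429 FPKM on NCD and 280.2, 302 and 256 FPKM on HFD (log2 fold change -0.77, SE 0.11). The 13 protein genes of the mitochondrial genome were all called lower, with a median of -1.13; under quantile normalization 4 were called lower and the median was -0.13. CYTB, of complex III, was at 7270.1, 7751 and 7857 FPKM on NCD and 3099.6, 3684 and 2369 FPKM on HFD (log2 fold change -1.34, SE 0.21). ND2, of complex I, was at 3619.7, 4143 and 4360.1 FPKM on NCD and 2759, 3104 and 2124 FPKM on HFD (log2 fold change -0.62, SE 0.19). Mitochondrial ribosome and import genes had 16 of 28 called lower with a median of -0.24. Under rescaling of all genes 12 were lower and the median was -0.11, and under centring 21 and -0.38.

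For fatty acid oxidation, 3 of 23 tested members were called higher and 13 lower, with a median log2 fold change of -0.51. Eci1, an isomerase for unsaturated fatty acids, was at 78.6, 103 and 72.7 FPKM on NCD and 35.9, 39.9 and 27.9 FPKM on HFD (log2 fold change -1.27, SE 0.15, adjusted p = 4.08e-05). Ehhadh, of the peroxisome, fell by 1.29 (SE 0.21). Cpt1a, the carnitine transferase that admits fatty acids to mitochondria, went the other way, at 21.7, 17.4 and 24.2 FPKM on NCD and 56.1, 55.2 and 65.3 FPKM on HFD (log2 fold change 1.45, SE 0.11, adjusted p = 1.93e-06). Hadha, of the trifunctional protein, rose by 0.56 (SE 0.06) while its partner Hadhb was at 113, 119 and 114 FPKM on NCD and 131, 131 and 115 FPKM on HFD (adjusted p = 0.199).

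Glycolysis showed no common direction, with 11 of 28 higher, 10 lower and a median of 0.08 that was -0.07 under centring. Hexokinases differed: Hk3, found in myeloid cells, was at 1.45, 1.08 and 1.03 FPKM on NCD and 34.6, 30.2 and 54.2 FPKM on HFD (log2 fold change 4.18, SE 0.21, adjusted p = 1.15e-07). Hk2, the insulin-responsive form, was at 20.3, 24.9 and 28.1 FPKM on NCD and 13, 13.1 and 9.13 FPKM on HFD (log2 fold change -1.0, SE 0.15, adjusted p = 1.47e-04). Pkm, pyruvate kinase, rose by 1.05 (SE 0.12). Mpc1, which carries pyruvate into mitochondria, fell from 190.1, 217 and 201 FPKM to 99.2, 105 and 82.5 FPKM (log2 fold change -1.08, SE 0.12). Ldhb fell by 1.88 (SE 0.21). Ldha was at 351, 357 and 358 FPKM on NCD and 336, 342 and 332 FPKM on HFD (adjusted p = 0.405).

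Cholesterol genes rose, 18 higher and 3 lower of 25. Soat1, which esterifies cholesterol for storage, was at 2.82, 1.32 and 1.94 FPKM on NCD and 33.1, 30.6 and 48.7 FPKM on HFD (log2 fold change 3.67, SE 0.24, adjusted p = 4.97e-07). Abcg1, a sterol exporter, was at 8.34, 4.93 and 7.39 FPKM on NCD and 33.3, 31.1 and 32.9 FPKM on HFD (log2 fold change 2.11, SE 0.14, adjusted p = 5.42e-07). In the synthesis pathway Dhcr7, the last enzyme, was at 4.19, 3.8 and 5.05 FPKM on NCD and 18.2, 17.6 and 18.5 FPKM on HFD (log2 fold change 1.84, SE 0.10, adjusted p = 2.05e-07). Against the list, Fdft1, squalene synthase, fell from 9.01, 17.1 and 13.9 FPKM to 8.47, 6.16 and 6.75 FPKM (log2 fold change -0.79, SE 0.21), and Apoe, a lipoprotein of adipocytes and macrophages, from 2318, 2868 and 1967 FPKM to 1521, 1383 and 1111 FPKM (log2 fold change -0.83, SE 0.17).

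Redox and iron genes moved in both directions. Of 24 antioxidant and glutathione genes, 6 rose and 12 fell. Hmox1, which breaks down haem, was at 15.9, 14.9 and 14.2 FPKM on NCD and 108, 98.8 and 151 FPKM on HFD (log2 fold change 2.88, SE 0.14, adjusted p = 8.97e-08). Srxn1, which repairs peroxiredoxins, rose by 1.73 (SE 0.19). Gsta3, a glutathione transferase, was at 117, 152 and 111 FPKM on NCD and 11.1, 12.9 and 9.88 FPKM on HFD (log2 fold change -3.37, SE 0.20, adjusted p = 2.74e-07). Gpx3, the secreted glutathione peroxidase, was at 941, 824 and 628 FPKM on NCD and 214, 209 and 160.3 FPKM on HFD (log2 fold change -2.02, SE 0.18, adjusted p = 4.55e-06). Of 18 iron genes, 5 rose and 6 fell. Slc11a1, the iron exporter of phagosomes, was at 6.59, 5.16 and 5.81 FPKM on NCD and 70.3, 60.2 and 95.3 FPKM on HFD (log2 fold change 3.46, SE 0.20, adjusted p = 2.37e-07). Trf, transferrin, was at 1461, 1646 and 1183 FPKM on NCD and 510.5, 623 and 415 FPKM on HFD (log2 fold change -1.47, SE 0.17, adjusted p = 3.23e-05). Cytochrome P450 genes were likewise divided, 4 higher and 6 lower of 15: Cyp1b1 rose by 1.29 (SE 0.10). Cyp2e1, an ethanol-inducible enzyme, was at 1244, 3114 and 1244 FPKM on NCD and 22, 20.6 and 9.37 FPKM on HFD (log2 fold change -6.61, SE 0.46). Por, the reductase that supplies these enzymes with electrons, fell by 1.37 (SE 0.11).

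Clock genes moved in both directions. Of 19 tested, 11 fell and 3 rose. Arntl, the activator BMAL1, was at 3.01, 1.47 and 1.64 FPKM on NCD and 6.19, 5.05 and 7.01 FPKM on HFD (log2 fold change 1.25, SE 0.19, adjusted p = 2.40e-04), and its partner paralogue Npas2 rose by 0.83 (SE 0.19). Among repressors and output genes of the loop, Per2 was at 5.97, 7.05 and 8.17 FPKM on NCD and 2.76, 2.8 and 1.89 FPKM on HFD (log2 fold change -1.21, SE 0.14, adjusted p = 2.87e-05). Nr1d1, REV-ERB alpha, was at 93.9, 94.2 and 87.8 FPKM on NCD and 31.2, 36 and 22 FPKM on HFD (log2 fold change -1.62, SE 0.27, adjusted p = 3.81e-04). Dbp was at 36.2, 75.3 and 41.4 FPKM on NCD and 13.4, 20.3 and 10.5 FPKM on HFD (log2 fold change -1.7, SE 0.41). Nfil3, which opposes Dbp at shared sites, rose by 0.99 (SE 0.19). Clock itself was at 6.11, 5.34 and 7.68 FPKM on NCD and 8.51, 6.74 and 8.0 FPKM on HFD (adjusted p = 0.127). The hour of tissue collection is not given in the sources used here.

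Thermogenic genes did not move as a set, 5 higher and 2 lower of 14. Ucp2, an uncoupling protein relative found in macrophages, was at 109.6, 76.5 and 87.7 FPKM on NCD and 477, 459.9 and 556 FPKM on HFD (log2 fold change 2.45, SE 0.16, adjusted p = 4.93e-07). Otop1, a proton channel, was at 0.186, 0.14 and 0.162 FPKM on NCD and 5.33, 5.38 and 4.23 FPKM on HFD (log2 fold change 2.36, SE 0.12, adjusted p = 1.06e-07). Gatm, which starts creatine synthesis, rose by 2.06 (SE 0.18). Slc6a8, the creatine transporter, rose by 1.83 (SE 0.28), and Ckb, a creatine kinase, by 1.59 (SE 0.40), with 1 chow library, KO_NCD 2, above the other chow values. The list's mitochondrial creatine kinase, Ckmt1, was under 1 FPKM in each KO library and was not tested. Prdm16, a regulator of brown and beige fat, was at 1.07, 1.02 and 1.15 FPKM on NCD and 1.28, 1.51 and 0.718 FPKM on HFD (adjusted p = 0.836). Tph2, the neuronal enzyme that starts serotonin synthesis, was at 0.294, 0.108 and 0.185 FPKM on NCD and 32.5, 32.8 and 24.5 FPKM on HFD (log2 fold change 4.68, SE 0.11, adjusted p = 1.40e-09). Htr2b, a serotonin receptor, rose from 0.0109, 0.0188 and 0.018 FPKM to 3.67, 3.63 and 5.67 FPKM (log2 fold change 2.37, SE 0.14). Ddc, which completes serotonin synthesis, was at 3.03, 0.325 and 0.391 FPKM on NCD and 0.0453, 0.0812 and 0.0713 FPKM on HFD (adjusted p = 0.105). Maob, which breaks amines down, fell by 1.97 (SE 0.18). Of 8 tested genes of the serotonin pathway, 3 reached the filter only through HFD libraries of either genotype and 1 only through chow libraries. Of the 14 thermogenic genes these numbers were 2 and 1. The direction of such genes was in part fixed by the filter.

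Of the 14340 tested genes, 57, several of them described above, were under 1 FPKM in every KO chow library and at least 5 FPKM in every KO HFD library. Another 8 showed the reverse. Those named next were chosen after their values were seen. The thresholds by themselves require groups that do not overlap, so the adjusted p-values of these genes lend no support. The 3 libraries where such a gene is high also carry it over the filter. Itgad, the integrin CD11d of tissue macrophages, was at 0.0345, 0 and 0 FPKM on NCD and 18.3, 24.2 and 17.6 FPKM on HFD (log2 fold change 4.37, SE 0.10, adjusted p = 1.40e-09). Dcstamp, needed for the fusion of macrophages into giant cells, was at 0.293, 0.133 and 0.184 FPKM on NCD and 7.31, 6.0 and 13.2 FPKM on HFD (log2 fold change 2.97, SE 0.24, adjusted p = 2.22e-06). Il7r, the receptor for interleukin 7, was at 0.521, 0.742 and 0.927 FPKM on NCD and 33.6, 29.3 and 45.5 FPKM on HFD (log2 fold change 4.41, SE 0.20, adjusted p = 6.32e-08). F7, the clotting factor VII, rose from 0.39, 0.565 and 0.246 FPKM to 21.7, 18.4 and 30.5 FPKM (log2 fold change 4.11, SE 0.21). Gpr50, an orphan receptor, was at 0.0874, 0 and 0.0211 FPKM on NCD and 17.7, 13.7 and 5.11 FPKM on HFD (log2 fold change 3.52, SE 0.32), with KO_HFD 8 the lowest of the HFD libraries. In the other direction, Acsm3, a mitochondrial acyl-CoA synthetase, was at 8.48, 15.1 and 6.17 FPKM on NCD and 0.0901, 0.175 and 0.179 FPKM on HFD (log2 fold change -3.17, SE 0.26, adjusted p = 2.86e-06). Prtn3, proteinase 3, was at 7.76, 10.9 and 5.11 FPKM on NCD and 0.821, 0.543 and 0.792 FPKM on HFD (log2 fold change -2.33, SE 0.22).

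Extracellular matrix genes rose. For collagens, 19 of 22 tested members were called higher and 0 lower, with a median log2 fold change of 1.6. Col6a3, a chain of collagen VI, was at 13, 13.3 and 16.1 FPKM on NCD and 80.9, 83.2 and 87.7 FPKM on HFD (log2 fold change 2.49, SE 0.13, adjusted p = 1.26e-07). Col3a1, of fibrillar collagen III, was at 176, 172 and 174 FPKM on NCD and 714, 703 and 1079 FPKM on HFD (log2 fold change 2.22, SE 0.22, adjusted p = 1.03e-05). Of the basement membrane collagens, Col4a1 rose by 0.90 and Col4a5 by 0.62. Col5a3 was at 115, 86.2 and 140.0 FPKM on NCD and 120.5, 126 and 96.3 FPKM on HFD (adjusted p = 0.924). For lysyl oxidases and matricellular proteins, 19 of 25 tested members were called higher and 0 lower, with a median log2 fold change of 1.27. Lum, the proteoglycan lumican, was at 27.6, 23.9 and 19.8 FPKM on NCD and 167, 171 and 215 FPKM on HFD (log2 fold change 2.91, SE 0.12, adjusted p = 4.79e-08). Loxl2, which crosslinks collagen, rose by 1.65 (SE 0.18). Laminins and other basement membrane genes had 5 higher and 1 lower of 12, and 5 and 5 under quantile normalization or centring.

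Of 20 matrix proteases and inhibitors, 14 rose and 3 fell. Adam8, a myeloid membrane protease, was at 2.63, 0.78 and 2.06 FPKM on NCD and 111, 102 and 175 FPKM on HFD (log2 fold change 5.55, SE 0.30, adjusted p = 1.84e-07). Mmp3, stromelysin, was at 0.529, 0.302 and 0.267 FPKM on NCD and 18.7, 19.3 and 28 FPKM on HFD (log2 fold change 4.06, SE 0.17, adjusted p = 4.79e-08). Mmp14, a membrane protease of fibroblasts, was at 23.4, 22.3 and 16.4 FPKM on NCD and 70.3, 73.7 and 76.5 FPKM on HFD (log2 fold change 1.79, SE 0.12). The inhibitors moved in opposite directions. Timp1 was at 2.8, 0.564 and 0.774 FPKM on NCD and 41.3, 37.5 and 85 FPKM on HFD (log2 fold change 4.57, SE 0.42, adjusted p = 5.56e-06). Timp4, made by adipocytes, was at 122, 126 and 142 FPKM on NCD and 14.8, 12.3 and 2.86 FPKM on HFD (log2 fold change -3.81, SE 0.42, adjusted p = 1.90e-05). Timp3 fell by 1.13 (SE 0.20).

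Stromal progenitor genes rose, 14 higher and 1 lower of 18. Pdgfra, the receptor that marks adipose progenitors, was at 8.01, 7.28 and 6.73 FPKM on NCD and 22.4, 22.3 and 23.8 FPKM on HFD (log2 fold change 1.52, SE 0.08, adjusted p = 1.77e-07). Pi16, of a subset around vessels, rose by 1.46 (SE 0.28). Gsn, the actin-severing protein gelsolin, fell from 3546, 4035 and 3443 FPKM to 1682, 1911 and 1110.5 FPKM (log2 fold change -1.26, SE 0.20). Among TGF-beta, activin and BMP genes, 11 rose and 5 fell of 25. Tgfb1 was at 15.7, 15 and 16.5 FPKM on NCD and 55.6, 53.5 and 58.3 FPKM on HFD (log2 fold change 1.77, SE 0.11, adjusted p = 5.11e-07). Gdf3, a ligand of the TGF-beta family, was at 0.0835, 0.146 and 0.0304 FPKM on NCD and 8.11, 7.6 and 7.17 FPKM on HFD (log2 fold change 2.99, SE 0.17, adjusted p = 2.20e-07). Acvr1c, the receptor ALK7 through which it acts in fat cells, was at 25, 29.5 and 27.6 FPKM on NCD and 5.64, 6.36 and 4.65 FPKM on HFD (log2 fold change -2.12, SE 0.13, adjusted p = 2.98e-07).

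Vascular genes moved differently. In the endothelial list, 1 rose and 8 fell of 20; without KO_HFD 8 the counts were 2 and 3, and under centring 0 and 12. Pecam1, the general endothelial marker CD31, was at 50, 44.9 and 54.4 FPKM on NCD and 54.5, 60.6 and 30.3 FPKM on HFD (adjusted p = 0.742). Cdh5, the junction protein VE-cadherin, was at 61.6, 51.8 and 60 FPKM on NCD and 59.7, 63.1 and 27 FPKM on HFD (adjusted p = 0.357); for both genes KO_HFD 8 was the lowest library, while the other HFD libraries lay above the lowest chow value. Vegfa, the main growth factor of vessels, was at 88.7, 122 and 79.9 FPKM on NCD and 30.4, 34.1 and 20.2 FPKM on HFD and fell (log2 fold change -1.75, SE 0.20, adjusted p = 2.77e-05). Vegfb fell by 1.73 (SE 0.18). Hif1a, the oxygen-regulated transcription factor, rose from 16.1, 15.7 and 18.3 FPKM to 36.7, 34.6 and 37.2 FPKM (log2 fold change 1.07, SE 0.09, adjusted p = 3.72e-06), while the full hypoxia list had 7 higher and 6 lower of 18. For smooth muscle, 1 of 11 tested members were called higher and 6 lower, with a median log2 fold change of -1.03. Mylk, myosin light chain kinase, was at 37.7, 39.4 and 37.4 FPKM on NCD and 13.4, 23.1 and 9.12 FPKM on HFD (log2 fold change -1.37, SE 0.28, adjusted p = 0.00157). Acta2, the contractile actin, was at 47.4, 34.2 and 56.9 FPKM on NCD and 47.4, 41.3 and 30.2 FPKM on HFD (adjusted p = 0.367). Haemoglobin genes of red cells fell, with Hbb-bs at 432, 784 and 651 FPKM on NCD and 119, 199 and 157 FPKM on HFD (log2 fold change -1.95, SE 0.31, adjusted p = 2.57e-04).

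Markers of neighbouring tissues were checked beside these results. In the ciliated epithelium list 0 of 18 genes were called by limma and 2 had an unadjusted p under 0.05. Without KO_NCD 2 and the 2 WT chow libraries that also carry these transcripts 2 were called higher and 9 lower. Of the 18, 14 reached the filter only through the KO chow libraries, so lower values on HFD were in part fixed by the filter. Summed levels of all 24 genes of the ciliated list, tested or not, were 195, 36.7 and 38.3 FPKM on NCD and 51.5, 54.8 and 45.2 FPKM on HFD. Mesothelial genes, from the lining of the fat pad, had 1 higher and 1 lower of 15. Krt8, a keratin, was at 38.2, 3.69 and 4.78 FPKM on NCD and 1.51, 1.84 and 2.62 FPKM on HFD (adjusted p = 0.0701), with KO_NCD 2 far above the other libraries. Of the epididymis list, 2 of 4 fell, 1 of which reached the filter only through the KO chow libraries. Adgrg2, a receptor known from the male duct, was at 36.6, 16.3 and 19.4 FPKM on NCD and 1.14, 1.56 and 1.27 FPKM on HFD (log2 fold change -3.36, SE 0.36, adjusted p = 1.53e-05). Without KO_NCD 2 the number of genes called was 8304, and 2 of the 212 called genes named here lost their call.

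The HoxB cluster around Mir10a was lower on HFD, 6 of 8 called, but 3 when either KO_NCD 2 or KO_HFD 8 was left out. Hoxb4, the gene next to Mir10a, was at 6.4, 5.26 and 4.04 FPKM on NCD and 2.88, 3.59 and 2.32 FPKM on HFD (log2 fold change -0.66, SE 0.16, adjusted p = 0.00407). Hoxb3, the next HoxB gene, was at 4.26, 3.0 and 2.22 FPKM on NCD and 2.08, 2.47 and 1.23 FPKM on HFD (adjusted p = 0.059); each of the 8 genes was highest in KO_NCD 2. Of 12 reported targets of miR-10a, 3 rose and 3 fell, with a median of 0.00 that was -0.14 under centring and 0.14 under rescaling of all genes. Tgfbr1 was at 5.91, 5.16 and 6.87 FPKM on NCD and 20.5, 17.2 and 23.8 FPKM on HFD (log2 fold change 1.62, SE 0.14, adjusted p = 3.59e-06). Gata6, a transcription factor, fell by 0.55 (SE 0.09). Map3k7, the kinase TAK1, was at 9.85, 9.44 and 11.8 FPKM on NCD and 11.9, 11.6 and 11.4 FPKM on HFD (adjusted p = 0.139). By RNA class, 102 of 595 lncRNAs rose and 327 fell (median -0.49), against 4671 and 3293 of 12747 protein-coding genes (median 0.05). Of genes used as references, Actb rose by 1.25 (SE 0.13) and Gusb by 2.52 (SE 0.15). Ppia was at 824, 810.3 and 765 FPKM on NCD and 797, 809 and 827 FPKM on HFD (adjusted p = 0.826).

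Across the 69 lists, 47 had more than 50% of their tested members called in 1 direction, 31 higher and 16 lower. The lists share members, such as Ctsk and Lipa of the lipid-associated macrophage and lysosomal lists, so they are not independent of each other. They were also chosen with earlier results of these data known. Under centring the T and NK cell, MHC class I, interferon-stimulated, fatty acid uptake and housekeeping lists lost their majority of rises. Under rescaling of all genes the fatty acid oxidation, mitochondrial ribosome and import, smooth muscle, skeletal muscle and HoxB lists lost their majority of falls. The list median changed sign under centring for glycolysis, cytochrome P450, iron handling, laminins and reported miR-10a targets, and under rescaling of all genes for resident-type macrophages and for hypoxia and angiogenesis.

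**Figure D4:**
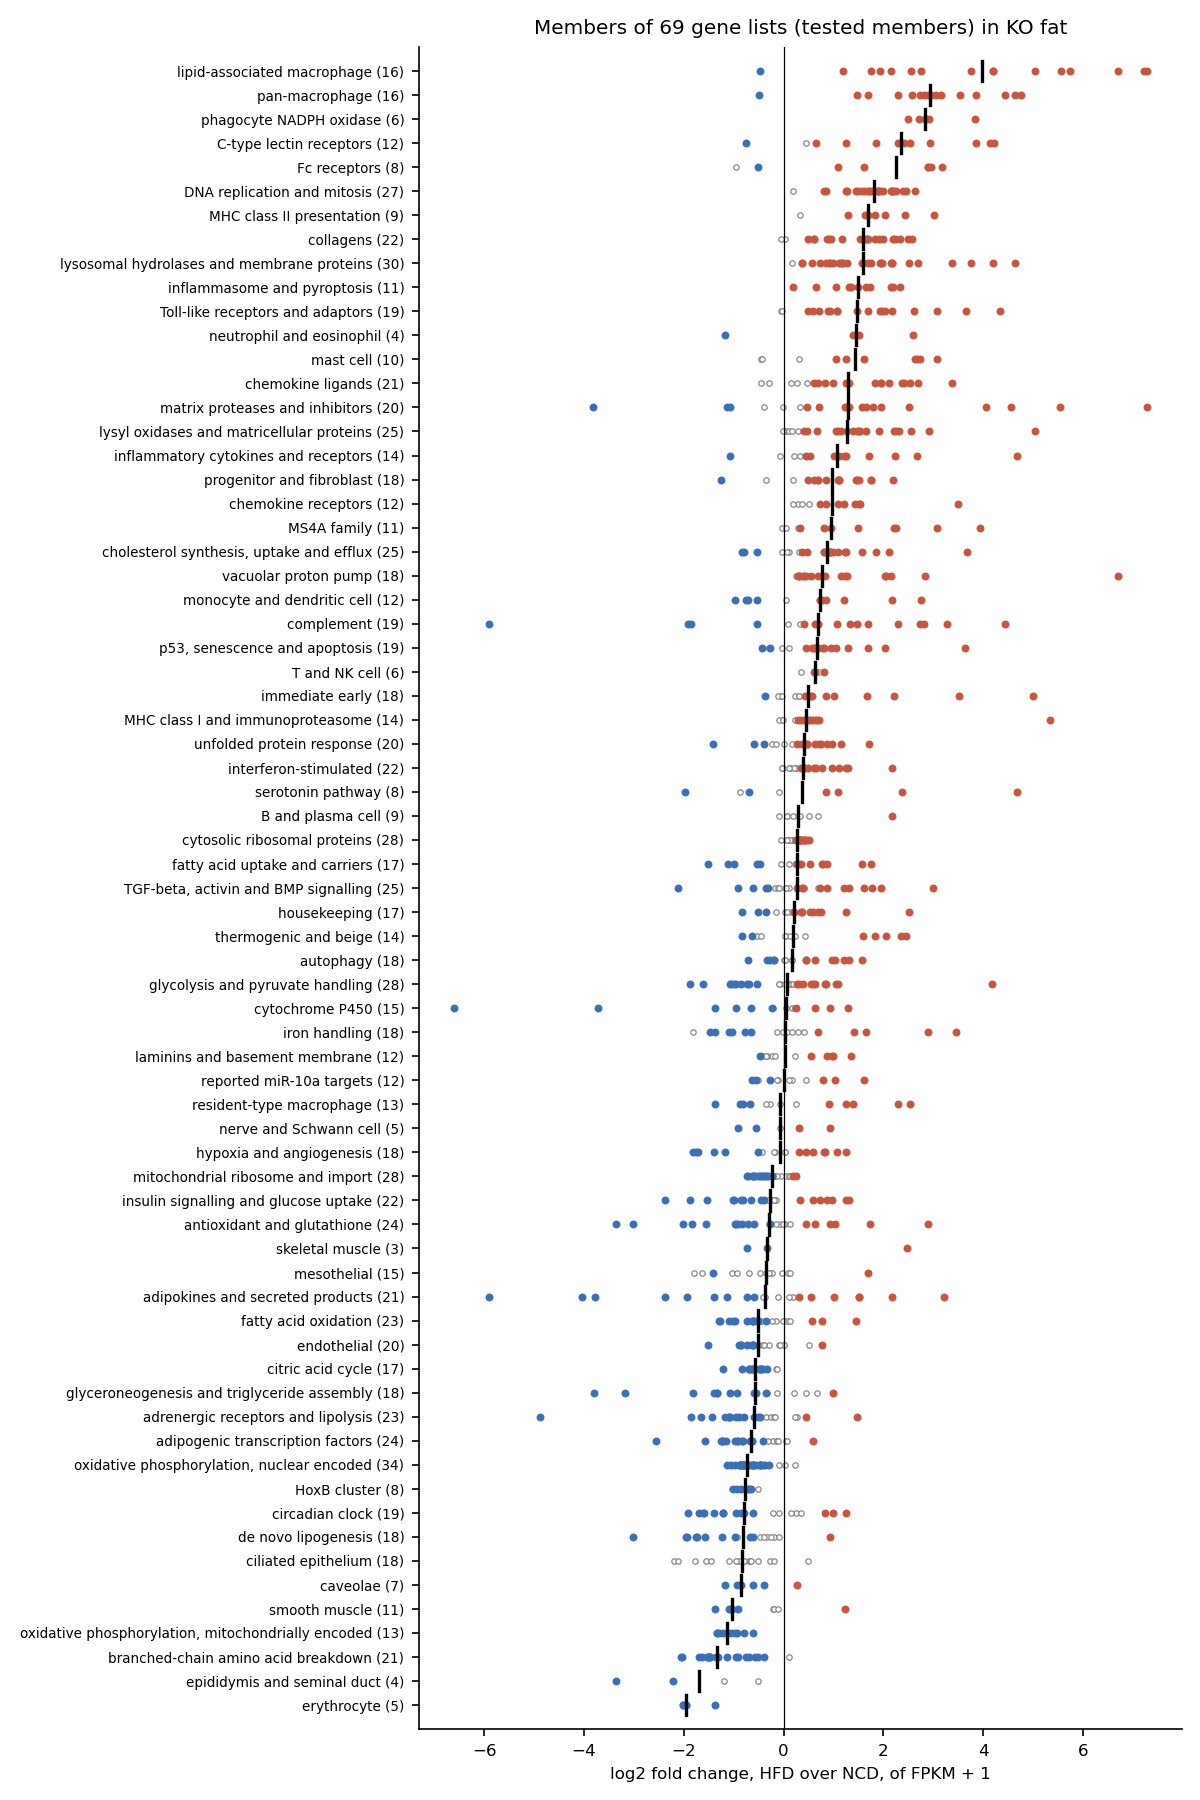
Log2 fold change of FPKM + 1 (HFD over NCD, horizontal axis) of each tested member of 69 gene lists in KO fat, one list per row ordered by its median (black bar), with the number of tested members in brackets. Red points were called higher, blue points lower and open points not called; macrophage lists lie at the top with medians of 3.97 and 2.92, and erythrocyte genes at the bottom with -1.96.

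The KO diet response was set against that of WT fat by the interaction term of the same limma fit. The difference was called for 39 genes (0.272%), 38 of them with the higher value in KO, and 2649 genes had an unadjusted p under 0.05; 37 of the 39 were also called for diet in KO. This set was small and unstable: its size ran from 0 to 168 when single libraries were left out, with 168 without KO_NCD 2 and 0 without each of KO_NCD 3, KO_NCD 4, WT_NCD 1, WT_NCD 4 and WT_HFD 1 in turn, where 1751 to 2755 genes had an unadjusted p under 0.05. It was 4 under quantile normalization. Of the 10 tested mast cell genes, 7 were in it, among them Mrgprb1 and Tpsab1, which were tested only because they reached 1 FPKM in the KO HFD libraries and so lend the count no support. This held for 3 of the 39 genes. Cpa3 in WT fat was at 6.29, 4.47 and 3.31 FPKM on NCD and 9.93, 12 and 8.98 FPKM on HFD, and its diet effect was larger in KO by 2.06 (SE 0.30, adjusted p = 0.0355). Tpsb2 in WT fat was at 13.7, 9.08 and 10.9 FPKM on NCD and 16.5, 18.3 and 12 FPKM on HFD, with a difference of 2.3 (SE 0.27, adjusted p = 0.0248). Cma1, a chymase, was at 8.6, 6.02 and 7.07 FPKM on NCD and 13, 14.9 and 9.36 FPKM on HFD, with a difference of 1.94 (SE 0.26, adjusted p = 0.0305). For these 3 genes each KO library lay above each WT library on HFD; on NCD each KO library lay below each WT library for Tpsb2 and Cma1, and KO_NCD 2 overlapped the WT values for Cpa3.

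Other genes with a called difference had varied roles. Arhgap19, a regulator of cell division, was at 1.12, 0.879 and 1.08 FPKM on NCD and 11.3, 11.1 and 10.8 FPKM on HFD in KO, and its diet effect differed by 0.90 (SE 0.11, adjusted p = 0.0248). Cpe, a processing carboxypeptidase, was at 22.3, 20.1 and 21.4 FPKM on NCD and 39.4, 41.4 and 46.4 FPKM on HFD in KO and 31.6, 28.8 and 32 FPKM on NCD and 25.2, 29.9 and 25.2 FPKM on HFD in WT fat (difference 1.16, SE 0.12, adjusted p = 0.0204); it rose in KO and was not called in WT. Wfdc21, an acute-phase protein, was the 1 gene with the lower diet effect in KO: it was at 60.9, 60.9 and 61.2 FPKM on NCD and 59.9, 68.1 and 45.5 FPKM on HFD in KO (diet effect -0.09, adjusted p = 0.633) and at 26.2, 40.9 and 30.3 FPKM on NCD and 97.9, 108 and 114 FPKM on HFD in WT fat, where it rose by 1.71 (difference -1.8, SE 0.23, adjusted p = 0.0248). For Wfdc21 each KO library stood above each WT library on NCD and below each on HFD.

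**Figure D5:**
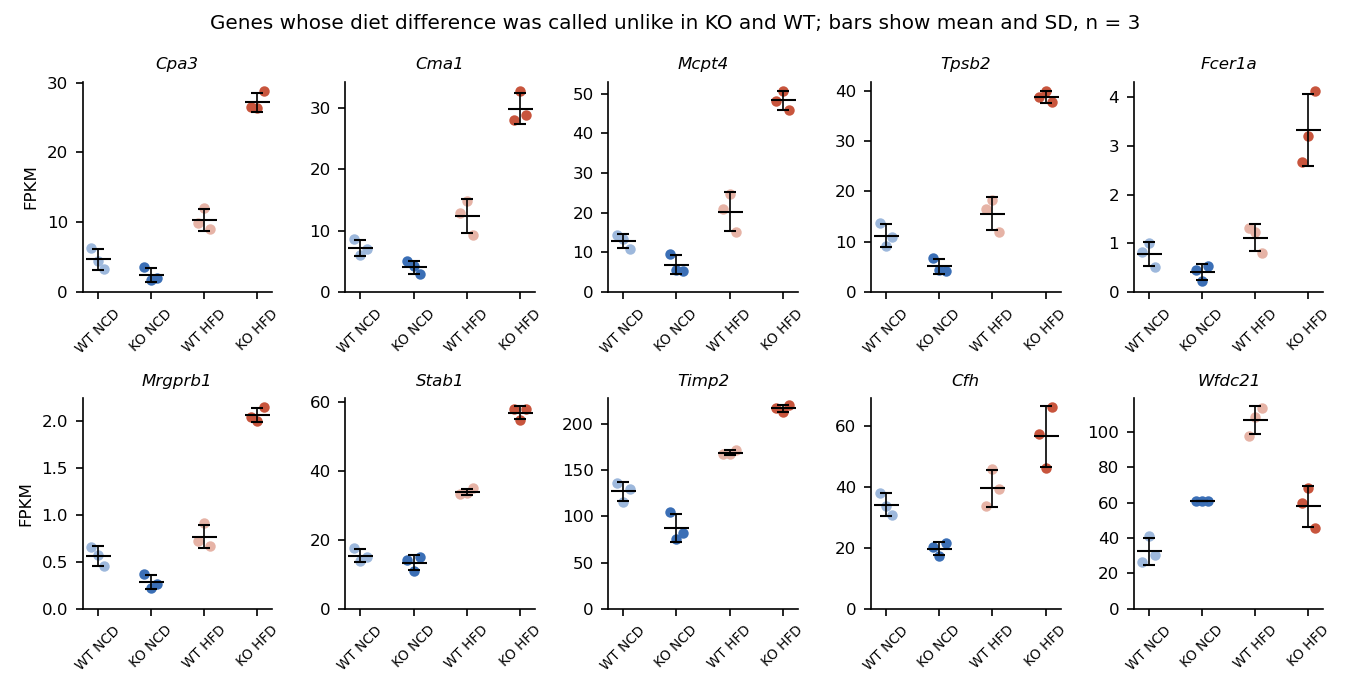
FPKM (vertical axes, from 0) of 10 genes whose diet effect was called as different between KO and WT, in all 12 libraries by group, with bars for mean and SD of 3 libraries. The mast cell genes of the first 6 panels, of which Mrgprb1 reached the filter only through KO HFD, are highest in KO HFD, for example Cpa3 at 26.4 to 28.8 FPKM, and Wfdc21 is the panel in which KO HFD does not exceed WT HFD.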

How the data were processed

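RNA-seq of gonadal white fat from 12 mice in 4 groups of 3 was analysed, of which the 6 KO libraries are the subject. Per the labels' protocols, total RNA came from TRIzol extraction, and the library kit was TruSeq Stranded mRNA LT, a kind that selects polyadenylated RNA. FPKM per gene was computed by the authors and deposited as 1 table, per the file headers. Tools listed in the submitters' processing notes, with no role or setting, include StringTie 1.3.4d and HISAT2 2.1.0 beside Trimmomatic and bcl2fastq 2.20.0, and the build is mm10. Of 30268 gene IDs, 30196 matched a RefSeq symbol; 24 of the 72 unmatched IDs were among the tested genes.

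From these values, log2(FPKM + 1) was modelled in limma (version 3.58.1, R version 4.3.3) with 4 group means over all 12 libraries (8 residual degrees of freedom) and a mean-variance trend, for 14340 genes at 1 FPKM or more in at least 3 libraries. The contrasts were HFD less NCD in KO, and the difference of this effect from that in WT. P-values were adjusted over all tested genes by the Benjamini-Hochberg method at 0.05, and the fit was tested on simulated data. FPKM is a share of the library, so a change in abundant transcripts shifts all other values; 4 rescalings were therefore run, besides other pseudocounts, filters, libraries left out and a fit on the KO libraries alone. Motifs were searched on both strands of promoter windows of 300 bases from RefSeq GRCm38.p6, which were held for 10711 tested genes; TCACGTGA contains the E-box CACGTG.

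The gene lists and the naming rule were chosen with earlier results of these data known. The rule took the 25 largest rises and falls with groups that did not overlap and a mean of at least 10 FPKM, the members of each list with the largest change, the 2 most abundant or those against its direction, the 15 most abundant genes per diet, the 15 lowest interaction p-values and 14 genes of prior interest. Of 244 tested genes named, not counting Hdc, 52 lie outside it and were chosen after their values were seen, as was Hdc. Results of some genes are not reported here.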

Additional observations from a re-analysis of the deposited data

Results flagged for a closer look

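The diet effect in KO fat differed from that in WT fat, by the interaction term of limma over 14340 genes, for 6 genes named in the report. It was higher in KO by 2.3 on the log2 scale for Tpsb2, by 2.06 for Cpa3 and by 1.94 for Cma1, which encode proteases stored in mast cell granules. For Cpe the difference was 1.16 and for Arhgap19 0.90. For Wfdc21 it was -1.8, with a rise in WT fat and a diet effect in KO of -0.09 that was not called. Each of the 6 lost its call under at least 1 alternative, and the range of the count of such genes is given with the alternatives. Groups of 3 libraries are too small for a test of single outlying libraries.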

How the results depend on the processing

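The number of genes called for diet in KO fat, 8730, ran from 6418 (genes reaching 5 FPKM) to 10149 (no filter on low values), and from 7779 without KO_HFD 8 to 8656 without KO_NCD 4. The higher share of the calls was 56.9%, and 45.3% under quantile normalization, 42.4% under centring and 67.7% with all genes rescaled to the same sum. The number of lists with more than 50% of their members called in 1 direction, 47, ran from 39 to 48. Of 212 named genes called for diet, 203 were called under every alternative run. The other 9 were Atp6v0d1, CYTB, Cd36, Cebpb, Fabp4, Lpl, ND2, Nek7 and Nr4a2. Under quantile normalization Lpl was at 0.019 and ND2 at 0.20 on the log2 scale, opposite in sign and not called; the cause was not tested. The difference between the genotypes' diet effects, called for 39 genes, was called for 24 with no filter, 4 under quantile normalization, 13 under centring, 3 with nuclear genes rescaled and 6 with all genes rescaled. Leaving out single libraries gave 0 to 168 genes by limma, and without the 3 NCD libraries with ciliated-cell transcripts (KO_NCD 2, WT_NCD 2 and WT_NCD 4) it was 17; the cause was not tested. Where the count was 0, the genes at an unadjusted p under 0.05 numbered 2220 without WT_NCD 1, 2288 without WT_NCD 4, 2010 without KO_NCD 3, 2755 without KO_NCD 4 and 1751 without WT_HFD 1. With 2 libraries left in a group, the fit draws its spread from all groups. The alternatives without the ciliated-cell libraries and with all genes rescaled were chosen after seeing the data. No paired analysis was possible because the column headers carry animal numbers, 2, 3 and 4 on NCD and 3, 5 and 8 on HFD, which share 1 number, and not the replicate numbers of the titles, so the planned replicate block was not run. FPKM values carry no counts, so counting error could not be separated from the spread between samples, and changes of genes under 1 FPKM rest on the pseudocount.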
